A study of Mus musculus with 12 samples.

Results

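Mammary tumors with abundant Met RNA differed widely in their RNA for Fgfr1, and among 10 such tumors the 6 with more Fgfr1 were compared with the 4 with less. RNA was sequenced from 12 tumors of 9 mice in all. The 10 tumors analysed here, from 7 mice, were those with a Met value of 1000 TPM or more, which leaves out tumors 2 and 9. A tumor was placed on the Fgfr1-high side at 200 TPM or more of Fgfr1 and on the Fgfr1-low side below that. TPM divides the reads of a gene by its length and scales each tumor to a common total. Tumors 5, 6, 7, 8, 11 and 12, from 5 mice, formed the high side, and tumors 1, 3, 4 and 10, from 3 mice, the low side. The tumors and sides were thus chosen by their measured Met and Fgfr1 values and are not groups of the study, in which all tumors belong to 1 condition.

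Every animal was a female mouse of mixed background whose labels give the genotype MADM RG;GR alleles and no treatment. MADM, mosaic analysis with double markers, uses Cre-driven exchange between homologous chromosomes to leave sparse GFP-labelled cells that have lost both Brca1 and p53 in an otherwise heterozygous animal. Cre was driven by the MMTV promoter, which acts mainly in mammary epithelium. The exchange also yields RFP-labelled wild-type cells, and the rest of the animal stays heterozygous. The age at which each tumor was taken was not given in the sources used here. Each library came from about 50 mg of whole tumor, so stroma, vessels and immune cells are included, and no normal gland was among the samples. In such bulk tissue, fewer cells of a type and less RNA per cell cannot be told apart.

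FGFR1 is a receptor tyrosine kinase that binds fibroblast growth factors together with heparan sulfate chains on the cell surface. The active receptor recruits the adaptor FRS2, and signal then runs through GRB2, SOS and GAB1 to the RAS-ERK and PI3K pathways, and through phospholipase C gamma. ERK signalling induces transcription factors such as ETV4 and ETV5 and feedback inhibitors such as the Sprouty proteins and DUSP6. In breast cancer FGFR1 is known as an amplified receptor, and MET is a separate receptor tyrosine kinase whose ligand is hepatocyte growth factor.

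Fgfr1 (ENSMUSG00000031565, chromosome 8 from 25513654 to 25575718, plus strand, GRCm38) was at 182 TPM in tumor 1, 15.4 TPM in tumor 3, 69.9 TPM in tumor 4 and 137 TPM in tumor 10 on the low side. On the high side it was at 378 TPM in tumor 5, 228 TPM in tumor 6, 218 TPM in tumor 7, 550 TPM in tumor 8, 360 TPM in tumor 11 and 584 TPM in tumor 12. The highest of the 10 tumors held 38.0 times the level of the lowest, yet there was no wide gap at the dividing value. The tumors nearest to it were tumor 7 at 218 TPM just inside the high side and tumor 1 at 182 TPM just outside it. The tumors left out had 0.855 TPM (tumor 2) and 30.0 TPM (tumor 9).

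Met (ENSMUSG00000009376, chromosome 6 from 17463800 to 17573980, plus strand) was used to keep the tumors and is likewise given without a test. On the low side it stood at 3011, 2492, 2135 and 3119 TPM in tumors 1, 3, 4 and 10. On the high side the values were 1468, 1847, 2072, 1251, 2475 and 1788 TPM in tumors 5, 6, 7, 8, 11 and 12. The sides overlapped only through tumor 11 of the high side, which lay above tumor 4 of the low side. All other high tumors were below every low tumor, and the medians were 1817 TPM high and 2751 TPM low. The sides thus differed in Met as well as in Fgfr1, and the part of Met in the differences below was not tested.

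**Figure D1:**
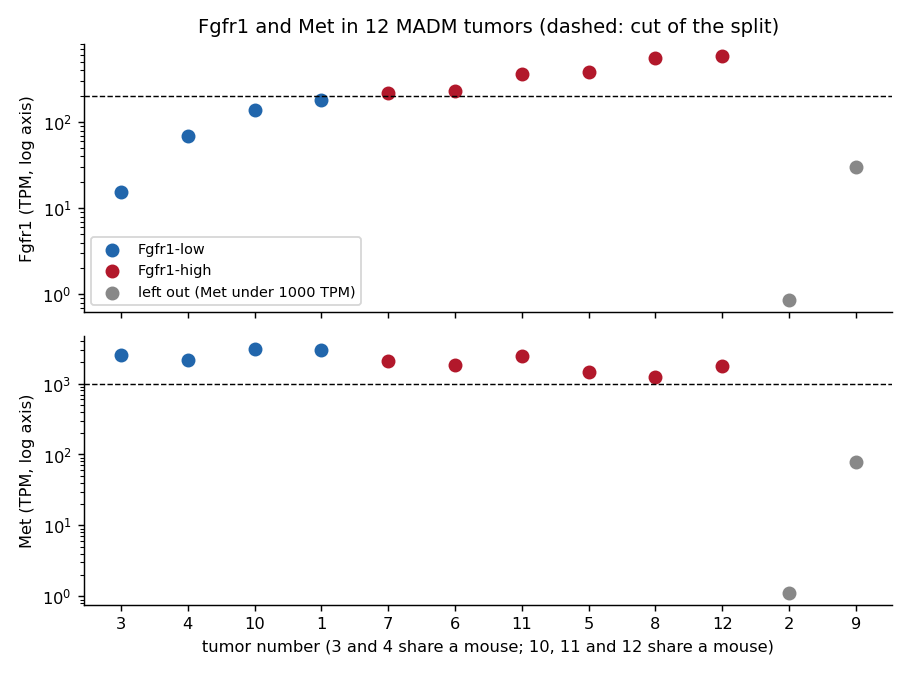
Fgfr1 and Met levels in each of 12 tumors (TPM, log axes, 1 point per tumor, red high, blue low, grey left out), with dashed lines at the dividing values of 200 and 1000 TPM. In the 10 tumors kept, Fgfr1 runs from 15.4 to 584 TPM without a wide gap at 200 TPM. Met lies between 1251 and 3119 TPM, and tumor 11 is the only high tumor above any low tumor.

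Shared mice and tumor 8 bear on every comparison that follows. Tumors 3 and 4 came from 1 mouse and were both low, and tumors 10, 11 and 12 came from another, in which tumor 10 was low and tumors 11 and 12 were high. Differences were therefore estimated with limma on log2(TPM + 1), with the mouse as a random block, and 3 of 10 tumors gave a contrast inside a single animal. The estimated correlation between tumors of a mouse was 0.749, so that this within-mouse contrast weighed heavily. Tumor 8 stood apart: it listed Epcam, an epithelial surface protein, at 2.03 TPM and Cdh1, the epithelial cadherin, at 3.77 TPM, against at least 239 and 136 TPM in the other 9 tumors. The intermediate filament gene Vim was at 3049 TPM in tumor 8 and at most 917 TPM elsewhere, and the luminal keratin gene Krt8 was at 128 TPM. A tumor with almost no RNA of epithelial junction genes was thus among the 6 on the high side.

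Of 16476 genes with a mean of 1 TPM or more, Fgfr1 left out, 3 were higher in the Fgfr1-high tumors (0.0182%) and 6 were lower (0.0364%), 0.0546% together, at an adjusted p under 0.05 (limma with Benjamini-Hochberg adjustment over all genes tested). The median difference over all genes was -0.0018 on the log2 scale. Without adjustment 1617 genes passed p under 0.05 higher (9.81%) and 1328 lower (8.06%), 17.9% together. The sides did not overlap for 173 genes higher (1.05%) and 182 lower (1.10%), 2.15% together. All 2945 genes at an unadjusted p under 0.05 had the same sign within the mouse of tumors 10 to 12 as in the whole fit. Without that mouse no gene passed the adjustment, and the unadjusted counts were 262 higher (1.59%) and 472 lower (2.87%). These shares of all genes are the background for every list count given below without that mouse. No gene passed without the mouse of tumors 3 and 4 (1219 and 855 at an unadjusted p under 0.05) or without tumor 6 (1514 and 1233). The fit without tumor 5 called 0 higher and 2 lower, with Spef1 as the 1 gene of the 9 below that passed again. The fit without tumor 1 called 3 higher and 3 lower, and of the 9 genes only Dpysl5 and Tnfrsf12a were among them. The counts became larger without tumor 7, at 12 higher and 19 lower, and without tumor 8, at 100 higher and 69 lower. The number of genes called thus rests on single tumors, so for the 9 genes called and for several pathway genes the difference within the mouse of tumors 10 to 12 (tumors 11 and 12 minus tumor 10) and that over the other mice (tumors 5 to 8 minus tumors 1, 3 and 4) are given as well.

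The highest difference among the genes that rose was that of Gpc4, a glypican, which is a heparan sulfate proteoglycan anchored at the cell surface (chromosome X from 52053021 to 52165252). It was at 12.9, 11.2, 13.2 and 17.9 TPM in the low tumors 1, 3, 4 and 10. In the high tumors 5, 6, 7, 8, 11 and 12 it was at 54.9, 34.5, 33.2, 20.8, 49.9 and 48.0 TPM. The sides did not overlap, and tumor 8, the lowest of the high side, lay close to tumor 10. The difference was 1.39 ± 0.20 (SE) on the log2(TPM + 1) scale, a 2.62-fold difference, with an adjusted p of 0.0476 by limma. It was 1.40 between tumors 11 and 12 and tumor 10 of the same mouse, and 1.38 between tumors 5 to 8 and tumors 1, 3 and 4.

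Wsb1, a SOCS box protein that serves as substrate receptor of a ubiquitin ligase (chromosome 11 from 79239372 to 79254671), had a smaller difference at a higher level. Its TPM values were 123, 107, 97.3 and 128 on the low side and 208, 205, 167, 227, 213 and 225 on the high side, in the same order of tumors. The sides were apart, and tumor 7 was the lowest of the high side. The difference was 0.79 ± 0.11, with 0.77 inside the mouse of both sides and 0.88 over the others. The third gene that rose, 5730455P16Rik (chromosome 11 from 80360492 to 80378034), was at 4.47 to 5.48 TPM in the low tumors and 9.08 to 15.6 TPM in the high tumors, a difference of 1.14 ± 0.17, with 1.30 within the mouse of both sides and 0.83 over the others. The named genes Nek8 and Zfp830, described below, lie in the same part of chromosome 11 as these 2 genes.

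Among the genes that fell, Dpysl5, a collapsin response mediator protein known from developing neurons (chromosome 5 from 30711564 to 30799375), was close to absent on the high side. It was at 0.988, 15.4, 12.5 and 7.77 TPM in the low tumors 1, 3, 4 and 10. In the high tumors it was listed at 0 in tumors 5, 11 and 12, at 0.243 TPM in tumor 6, 0.131 TPM in tumor 7 and 0.173 TPM in tumor 8. Dpysl5 thus met the minimum mean of 1 TPM only through the low side. The difference was -2.87 ± 0.38 on the log2(TPM + 1) scale, and tumor 1 was far below the other 3 low tumors. It was -3.13 within the mouse of both sides and -2.75 over the others. Cyp26a1, the enzyme that clears retinoic acid (chromosome 19 from 37697798 to 37701536), fell by 2.85 ± 0.42 in the same units. It was at 15.8, 2.77, 2.97 and 11.3 TPM in the low tumors and between 0 and 3.51 TPM in the high tumors. The sides overlapped, since tumor 7 at 3.51 TPM lay above tumors 3 and 4, and the difference was -3.39 within the mouse of both sides and -1.52 over the others.

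Tnfrsf12a, the receptor for the cytokine TWEAK (chromosome 17 from 23675445 to 23677468), was the most abundant gene that fell. It stood at 586, 774, 723 and 655 TPM in the low tumors and at 339, 355, 491, 366, 308 and 289 TPM in the high tumors. Every low tumor was above every high tumor, and the difference was -1.02 ± 0.13 with an adjusted p of 0.0470 by limma. Within the mouse of both sides it was -1.13, and over the others -0.84. Pfkp, a phosphofructokinase of glycolysis (chromosome 13 from 6579768 to 6648777), was at 214, 156, 126 and 191 TPM against 97.3, 91.8, 89.5, 93.2, 75.7 and 57.0 TPM, a difference of -1.30 ± 0.18. Here too the sides were apart, and the difference was -1.52 within the mouse of both sides and -0.79 over the others.

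Spef1, which encodes a protein that binds microtubules in cilia and flagella (chromosome 2 from 131170261 to 131187282), was at 17.8 to 46.0 TPM in the low tumors and 4.24 to 11.1 TPM in the high tumors, a difference of -1.94 ± 0.25 (-2.07 within the mouse of both sides and -1.50 over the others). Mall, a membrane protein of the MAL family (chromosome 2 from 127704386 to 127729932), was at 7.93 to 14.4 TPM against 2.04 to 5.52 TPM, with -1.82 ± 0.27 (-1.96 and -1.48). Of the 9 genes, 8 had no overlap between the sides, and the exception was Cyp26a1. Adjusted p-values of all 9 lay between 0.0470 and 0.0476 in the limma fit, just under the threshold. Without tumor 8 each of the 9 passed again, with adjusted p between 0.0167 and 0.0386.

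**Figure D2:**
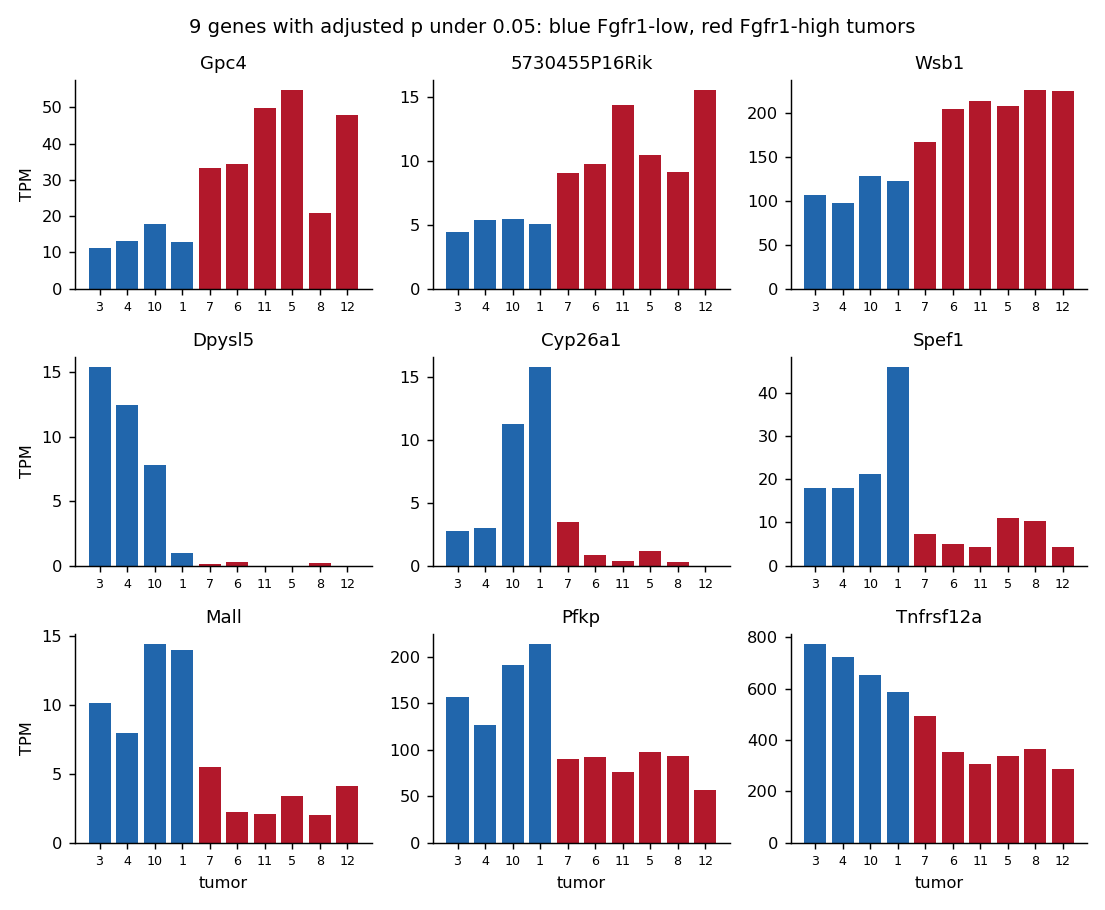
TPM of the 9 genes that passed the adjusted threshold, with 1 bar per tumor from 0 on a linear axis that differs between genes, tumors in order of Fgfr1 (red high, blue low). Cyp26a1 is the exception to the separation of the sides, with tumor 7 at 3.51 TPM above tumors 3 and 4.

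Of the 300-base windows around the RefSeq starts of these 9 genes (250 bases before to 50 after, GRCm38.p6), 1 holds the letters CCGGAAG, a core to which ETS factors such as ETV4 bind, and 0 hold TGANTCA, the letters bound by AP-1. Both strands were searched, and neither motif contains the other. CCGGAAG occurs in 8.86% of all 32851 windows and TGANTCA in 7.81%. The window with the ETS letters is that of Tnfrsf12a, at chr17:23677400-23677699 on the minus strand, and it is shown because it alone among the 9 holds either motif. Capitals mark the motif, and the match is a description of the letters and not of binding.
Tnfrsf12a: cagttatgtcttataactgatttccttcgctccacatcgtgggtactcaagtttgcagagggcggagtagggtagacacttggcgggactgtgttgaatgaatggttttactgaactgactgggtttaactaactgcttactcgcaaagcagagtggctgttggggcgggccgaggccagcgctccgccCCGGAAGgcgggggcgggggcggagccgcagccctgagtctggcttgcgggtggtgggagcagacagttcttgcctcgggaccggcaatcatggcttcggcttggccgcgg

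Below the threshold, genes with a mean of 10 TPM or more whose sides did not overlap were taken in order of their unadjusted p until 12 per direction were named. Sdpr, a caveolar coat protein, was at 2.47 to 15.8 TPM in the low tumors and 18.3 to 34.6 TPM in the high tumors, with a difference of 2.51 ± 0.41 and an adjusted p of 0.081 (limma). The difference of Sdpr was 3.16 within the mouse of both sides and 1.42 over the others. Nab2, a corepressor of EGR transcription factors, was at 24.6 to 32.9 TPM against 33.9 to 68.9 TPM. The others with higher values on the high side were Sh3bgrl, Agk, Nek8, Lyrm5, Azi2, Zfp830 and Nit2. On the other side, Nrip1, a nuclear receptor corepressor, was at 28.1 to 41.3 TPM in the low tumors and 14.1 to 23.1 TPM in the high tumors. Hid1, which acts in secretory granule formation, was at 39.6 to 61.6 TPM against 5.51 to 20.8 TPM, with tumor 8 the lowest. Nr2c2ap, Zfp276, Zhx2 and 1190005I06Rik were the others with lower values. None of these 15 genes passed the adjusted threshold.

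The question that the split raises first is whether other parts of the FGF pathway differ along with the receptor, and none of its receptors, ligands, adaptors or response genes passed the adjusted threshold. Of 10 receptor and co-receptor genes, 7 were tested, with a median difference of -0.038, and 2 had an unadjusted p under 0.05, both higher (28.6% of the list against 9.81% of all genes). Leaving out the mouse of tumors 10 to 12 left 0 of 7 and turned the median to 0.21. In that fit 1.59% and 2.87% of all genes passed higher and lower, so a count of 0 is near that share for a list of this size. Fgfr3, a close relative of Fgfr1, was at 11.7, 0.377, 1.31 and 2.66 TPM in the low tumors and at 10.4, 23.5, 1.22, 2.09, 60.5 and 37.3 TPM in the high tumors. Tumors 11 and 12 were far above tumor 10 of the same mouse, while tumors 7 and 8 were as low as the low side, and the difference of 2.65 ± 0.77 had an adjusted p of 0.125 (limma). It was 3.73 within the mouse of both sides and 0.95 over the others. Ncam1, an adhesion molecule that can bind FGFR1, had 1.69 ± 0.46, with 0.769 to 5.63 TPM against 1.56 to 15.2 TPM, and 1.35 ± 0.90 without that mouse. Fgfr2 was at most 5.94 TPM and Fgfr4 at most 0.504 TPM in any of the 10 tumors. Fgfrl1, a receptor without a kinase domain, was at 124 to 210 TPM in the low tumors and 24.7 to 223 TPM in the high tumors, with a difference of -0.75 ± 0.42.

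RNA of the ligands was low throughout. Of 24 genes for FGF ligands and their binding proteins, 20 had a mean under 1 TPM, and 5 of these were listed at 0 in all 10 tumors. The 4 that were tested had a median difference of -0.079, and none had an unadjusted p under 0.05. Fgf1 was at 1.48 to 6.45 TPM in the low tumors and 0.978 to 5.43 TPM in the high tumors. Fgf2 was at 2.12 to 3.36 TPM against 1.91 to 6.73 TPM, with tumor 8 the highest. Fgfbp1, a carrier that releases FGFs from the matrix, was above 1 TPM in tumors 3, 4 and 6 alone, at 13.7, 9.21 and 23.3 TPM.

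The 13 adaptor genes had a median difference of -0.096, with 1 higher and 3 lower at an unadjusted p under 0.05, which is 7.69% and 23.1% of the list against 9.81% and 8.06% of all genes. Without the mouse of tumors 10 to 12 there were 0 and 0. Gab1, a docking protein that serves both FGFR1 and MET, was at 29.8, 49.5, 38.1 and 33.6 TPM in the low tumors and 23.4, 14.7, 29.2, 18.2, 20.0 and 14.3 TPM in the high tumors. The sides did not overlap, though tumor 7 at 29.2 TPM lay next to tumor 1, and the difference of -0.90 ± 0.20 had an adjusted p of 0.090 (limma). It was -0.95 within the mouse of both sides and -0.86 over the others. Grb2, the adaptor that brings SOS to the receptor, had -0.48 ± 0.16, and Shb, another SH2 adaptor, had -0.58 ± 0.16. Frs3, a relative of Frs2, had 0.56 ± 0.18, while Frs2 itself had 0.34 ± 0.19 and an unadjusted p of 0.094. Without the mouse of tumors 10 to 12, Grb2 had -0.20 ± 0.29, Shb -0.26 ± 0.28 and Frs3 0.24 ± 0.33.

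**Figure D3:**
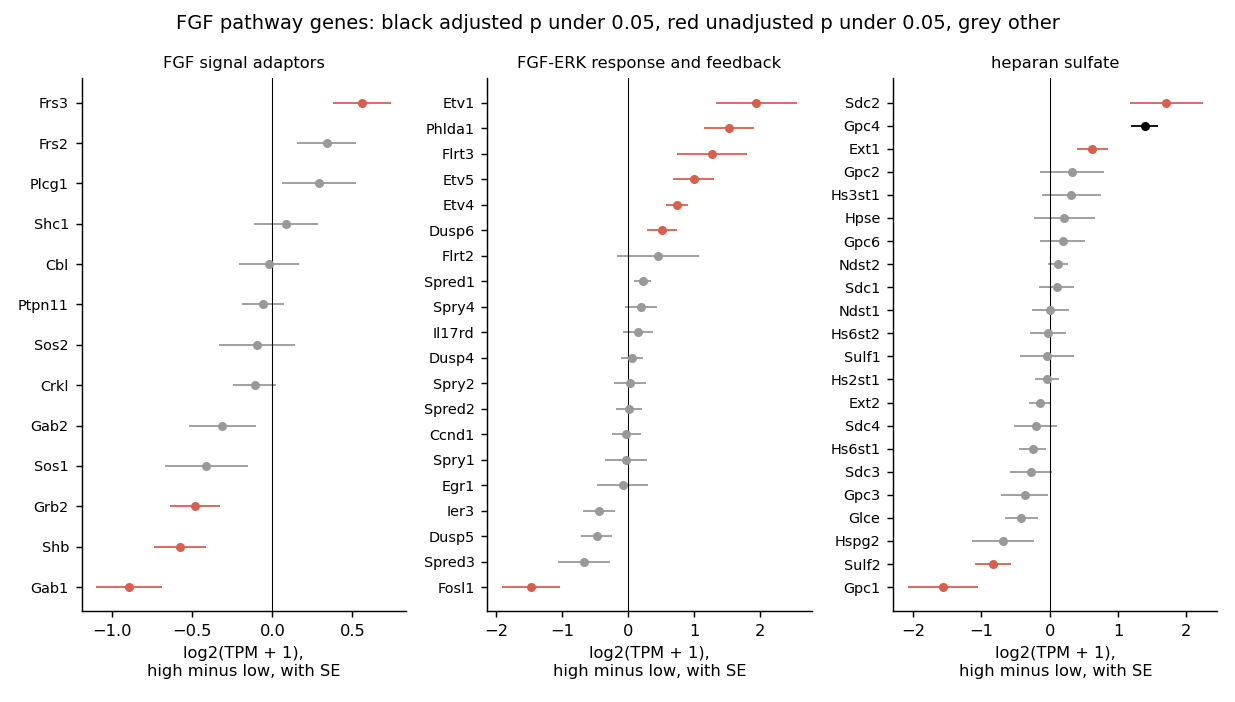
Differences of FGF signal adaptor, FGF-ERK response and heparan sulfate genes (log2(TPM + 1), high minus low, bars are the standard error from limma). Gpc4, in black, passed the adjusted threshold, genes in red had an unadjusted p under 0.05, and the Sprouty genes lie within 0.19 of 0 while the ETV genes lie at 0.74 to 1.94.

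Response genes of FGF and ERK signalling showed no common direction. Of 20 tested, 6 were higher and 1 was lower at an unadjusted p under 0.05, which is 30.0% and 5.0% of the list against 9.81% and 8.06% of all genes, and the median difference was 0.10. The PEA3 group of ETS factors, which ERK signalling induces, had 3 of these: Etv4 with 0.74 ± 0.17, Etv5 with 0.99 ± 0.31 and Etv1 with 1.94 ± 0.61. Etv4 was at 89.6, 83.6, 73.8 and 50.0 TPM in the low tumors and at 77.9, 102, 108, 89.4, 105 and 105 TPM in the high tumors, so that tumor 10 was the lowest and the other 9 lay between 73.8 and 108 TPM. Phlda1, an ERK-induced pleckstrin homology protein, was at 62.5, 30.9, 33.6 and 74.4 TPM against 154, 106, 130, 29.0, 242 and 282 TPM. All high tumors but tumor 8 lay above the low side. Over all 10 tumors the difference of Phlda1 was 1.53 ± 0.38 with an adjusted p of 0.098 (limma). Without tumor 8 Phlda1 passed the adjusted threshold, with 1.73 ± 0.23 and an adjusted p of 0.0173 (limma). Fosl1, an AP-1 subunit induced by ERK, went the other way, with -1.47 ± 0.44 and an adjusted p of 0.135 over all 10 tumors (limma). Without tumor 8 it had -1.65 ± 0.32 and an adjusted p of 0.0417, while in tumor 8 it was at 99.9 TPM, the highest of the 10. Leaving out the mouse of tumors 10 to 12 gave 1.00 ± 0.61 for Phlda1 and -0.59 ± 0.73 for Fosl1.

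Among the feedback inhibitors, the Sprouty genes had differences within their standard errors of 0. They were -0.04 ± 0.32 for Spry1, 0.03 ± 0.24 for Spry2 and 0.19 ± 0.24 for Spry4. Dusp6, the ERK phosphatase, had 0.52 ± 0.23 with an unadjusted p of 0.043. Its TPM values were 103, 177, 140 and 116 on the low side and 117, 121, 194, 88.1, 189 and 219 on the high side, which overlap widely. Ccnd1, cyclin D1, had -0.03 ± 0.21. Without the mouse of tumors 10 to 12 the differences were 0.04 ± 0.45 for Etv5, 0.16 ± 0.22 for Etv4, 1.43 ± 0.91 for Etv1 and -0.05 ± 0.35 for Dusp6, and none of the 20 genes had an unadjusted p under 0.05.

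Among 22 genes of heparan sulfate, the co-receptor of FGFs, Gpc4 rose and no other passed the adjusted threshold. The median difference was -0.031, and at an unadjusted p under 0.05 there were 3 higher and 2 lower (13.6% and 9.09% of the list against 9.81% and 8.06% of all genes). In the fit without the mouse of tumors 10 to 12 there were 1 and 1, where 1.59% and 2.87% of all genes passed. Sdc2, a syndecan, had 1.71 ± 0.53, with 12.1, 6.92, 34.0 and 11.0 TPM against 29.6, 32.7, 28.6, 112, 33.5 and 49.8 TPM. Tumor 4 of the low side lay within the range of the high side, and the difference was 1.80 within the mouse of both sides and 1.49 over the others. Ext1, which builds the chains, had 0.62 ± 0.22, and Sulf2, which removes sulfate from them, had -0.83 ± 0.27. Without the mouse of tumors 10 to 12 these were 0.79 ± 0.41 and -0.35 ± 0.48. Gpc1, a second glypican, was at 73.0, 103, 135 and 90.9 TPM in the low tumors and at 45.3, 53.9, 51.0, 278, 24.8 and 13.8 TPM in the high tumors, where tumor 8 was the highest of all. Over all 10 tumors the difference of Gpc1 was -1.57 ± 0.51 (adjusted p 0.154, limma). Without tumor 8 it was -1.76 ± 0.33 and passed (adjusted p 0.0417, limma). Without the mouse of tumors 10 to 12, with tumor 8 in, it was -0.29 ± 0.69, while that of Gpc4 was 1.37 ± 0.37.

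Genes around Fgfr1 on chromosome 8 had no common difference between the sides, and their direction depended on the mice compared. Within 2000 kb on each side lie 68 annotated genes of the table, of which 29 were tested. Their median difference was -0.15, 6 of 29 were above 0, and at an unadjusted p under 0.05 there were 0 higher and 4 lower, against 9.81% and 8.06% of all genes. Letm2, a mitochondrial protein whose gene lies 2.8 kb from Fgfr1, was at 1.49 to 3.46 TPM in the low tumors and 1.62 to 3.57 TPM in the high tumors, with -0.11 ± 0.24. Whsc1l1, the histone methyltransferase NSD3 at 25.9 kb, was at 34.8 to 63.8 TPM against 39.2 to 80.1 TPM, with -0.29 ± 0.21.

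No gene of the window had separate sides. The 4 lower genes were Rab11fip1 with -1.05 ± 0.23, Eif4ebp1 with -0.65 ± 0.21, Plekha2 with -0.59 ± 0.23 and Adam9 with -0.54 ± 0.23. Rab11fip1, a regulator of recycling endosomes, had an adjusted p of 0.090 (limma), with -1.46 within the mouse of both sides and -0.27 over the others. None of these 4 had an unadjusted p under 0.05 in the fit without the mouse of tumors 10 to 12, where Adam9 was at 0.16 ± 0.32. Adgra2, an adhesion receptor of vessels and stroma, was at 123 TPM in tumor 8 and at 3.09 to 9.35 TPM in the other 9. Within the mouse of tumors 10 to 12, 25 of 29 genes were below 0 with a median of -0.43, whereas between tumors 5 to 8 and tumors 1, 3 and 4, 25 of 29 were above 0 with a median of 0.31. The median of the window was 0.29 in the fit without that mouse and 0.13 without the mouse block. Over all 830 tested genes of chromosome 8 the median difference was -0.20, with -0.33 within the mouse of tumors 10 to 12 and 0.047 over the others. RNA levels do not measure copy number, and DNA was not analysed here.

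**Figure D4:**
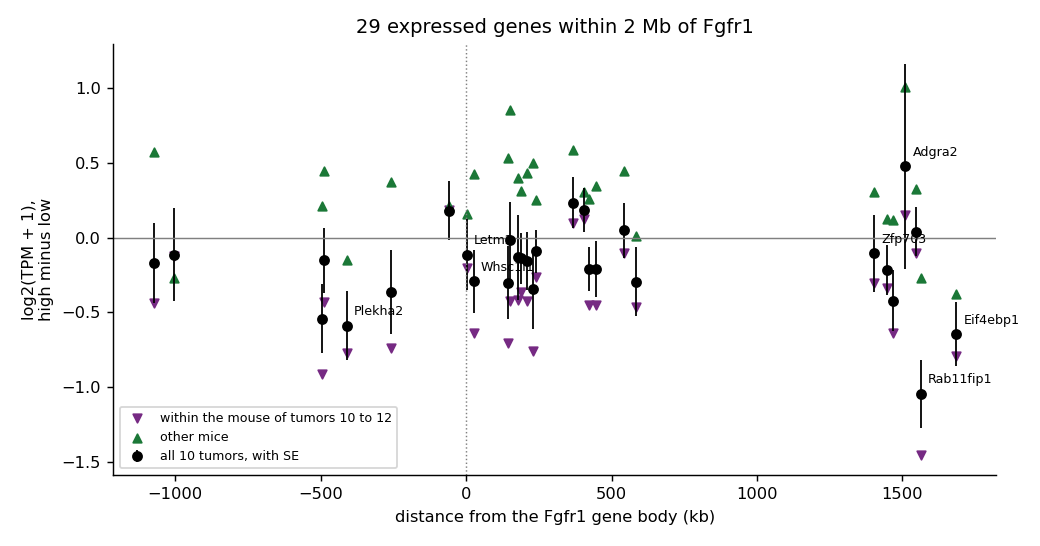
Difference (log2(TPM + 1), high minus low, with standard error) of the 29 tested genes within 2000 kb of Fgfr1, by distance from the gene in kb (black), with the difference within the mouse of tumors 10 to 12 (purple) and over the other mice (green). The black points have a median of -0.15, and 25 of 29 purple points lie below 0 where 25 of 29 green points lie above it.

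Beyond the FGF pathway, 11 further lists of pathway genes were followed, and 1 member, Pfkp of glycolysis, passed the adjusted threshold. In the cell cycle, 1 of 24 proliferation genes was higher and 5 were lower at an unadjusted p under 0.05, with a median of -0.21. These are 4.17% and 20.8% of the list against 9.81% and 8.06% of all genes, and without the mouse of tumors 10 to 12 there were 1 and 0. Top2a, a topoisomerase of dividing cells, was at 131 to 136 TPM in the low tumors and 137 to 326 TPM in the high tumors, with separate sides and a difference of 0.63 ± 0.16. Pcna, the replication clamp, had -0.57 ± 0.15, and Birc5, survivin, had -0.60 ± 0.20, so members of this list went both ways. Cdkn1a, the p21 inhibitor and a p53 target, was at 74.0, 90.9, 69.7 and 52.5 TPM in the low tumors and 16.7, 33.8, 21.3, 81.0, 19.1 and 16.5 TPM in the high tumors. Tumor 8 alone of the high side lay within the low side. The difference was -1.43 ± 0.30 with an adjusted p of 0.090, and without tumor 8 it was -1.60 ± 0.20 with an adjusted p of 0.0167 (limma). It was -1.26 ± 0.55 without the mouse of tumors 10 to 12.

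Of the 19 genes of the G1 phase and Rb list, 2 were higher and 4 lower at an unadjusted p under 0.05 (10.5% and 21.1% against 9.81% and 8.06% of all genes), and 0 and 0 without the mouse of tumors 10 to 12. Cdk4, the kinase partner of D cyclins, had 0.54 ± 0.17 and its regulator Ccnd3 had -0.51 ± 0.16. Myc had 0.58 ± 0.21, in a list of 9 with 2 higher and 1 lower (22.2% and 11.1% against 9.81% and 8.06% of all genes), and 0 and 0 without the mouse of tumors 10 to 12. In that fit Cdk4 had 0.16 ± 0.29, Ccnd3 -0.35 ± 0.28 and Myc 0.18 ± 0.26. Areg, an EGF receptor ligand, was at 82.7, 191, 162 and 44.7 TPM against 14.6, 30.2, 81.7, 41.0, 11.4 and 13.1 TPM, a difference of -1.80 ± 0.37 with an adjusted p of 0.090 (limma), and of -1.79 within the mouse of both sides and -1.93 over the others. Tumor 7 alone of the high side lay within the low side, and of 11 ERBB genes tested 1 was higher and 1 lower at an unadjusted p under 0.05 (9.09% each, against 9.81% and 8.06% of all genes), and 0 and 1 without the mouse of tumors 10 to 12. Of 16 WNT genes tested, 1 was higher and 3 were lower at an unadjusted p under 0.05 (6.25% and 18.8% against 9.81% and 8.06% of all genes; 1 and 1 without the mouse of tumors 10 to 12), among them the ligand Wnt7b with -0.91 ± 0.29. Hgf, the ligand of MET, was at 1.01 to 3.79 TPM in the low tumors and 1.49 to 3.17 TPM in the high tumors other than tumor 8, where it was at 46.9 TPM. Of the 7 genes tested for Hgf and its activation 1 was higher and 2 were lower at an unadjusted p under 0.05 (14.3% and 28.6% against 9.81% and 8.06% of all genes), with a median of -0.33. These were 0 and 1 without the mouse of tumors 10 to 12, with a median of -1.02. Of 11 genes around Met on chromosome 6, 1 was higher and 1, Tes, was lower at an unadjusted p under 0.05. Each is 9.09% of the list, against 9.81% and 8.06% of all genes. Without the mouse of tumors 10 to 12 there were 0 and 0, and the median turned from -0.031 to 0.33. The higher gene, Asz1, was above 1 TPM in tumors 11 and 12 alone, at 3.70 and 5.73 TPM, and so met the minimum mean only through the high side.

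Twist1, a transcription factor of mesenchymal cells, was at 1.32, 1.89, 8.60 and 1.79 TPM in the low tumors and at 25.7, 1.08, 15.4, 16.3, 21.7 and 23.0 TPM in the high tumors. Tumor 6 was the exception on the high side, and the difference of 2.57 ± 0.62 had an adjusted p of 0.093 (limma). It was 3.06 within the mouse of both sides and 1.48 over the others. Of the 14 genes of this list, 3 were higher and 0 were lower at an unadjusted p under 0.05 (21.4% of the list higher, against 9.81% of all genes), and 0 and 0 without the mouse of tumors 10 to 12. In glycolysis and hypoxia, Vegfa, the endothelial growth factor, had -0.87 ± 0.32, Hk2, a hexokinase, had -0.51 ± 0.20 and Egln3, an oxygen-sensing prolyl hydroxylase, had 1.29 ± 0.52 (2.00 within the mouse of both sides and -0.42 over the others). Of 19 genes tested 1 was higher and 3, Pfkp among them, were lower at an unadjusted p under 0.05 (5.26% and 15.8% against 9.81% and 8.06% of all genes), and 0 and 3 without the mouse of tumors 10 to 12. Of 18 interferon response genes, 1 was higher (5.56% against 9.81% of all genes) and none was lower, with a median of 0.23, and 2 and 0 without that mouse, with a median of 0.54. In lipid synthesis, Srebf1, the regulator of fatty acid genes, had 1.05 ± 0.36, in a list of 18 with 3 higher and 2 lower (16.7% and 11.1% against 9.81% and 8.06% of all genes), and 0 and 0 without that mouse. Without tumor 8 both Srebf1 and the desaturase gene Scd1 passed, with 1.21 ± 0.21 (adjusted p 0.0393, limma) and 1.32 ± 0.25 (adjusted p 0.0417). Without the mouse of tumors 10 to 12, Srebf1 had 0.24 ± 0.58 and Scd1 1.07 ± 0.95, and the median of the list turned from 0.020 to -0.22.

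None of 103 tested genes in 16 lists of cell type markers passed the adjusted threshold with all 10 tumors, and the ranges of the summed lists overlapped between the sides for all 16. The 8 epithelial junction genes all had differences below 0, with a median of -0.47, and summed to 1847 to 2590 TPM in the low tumors and 12.9 to 2190 TPM in the high tumors. The lowest sum was that of tumor 8, and without it the median difference was 0.088. Without the mouse of tumors 10 to 12, which leaves tumor 8 as 1 of 4 high tumors, the median was -1.48 for the epithelial junction genes, -2.11 for the luminal keratins, -2.12 for the basal keratins and -0.84 for the luminal progenitor and alveolar genes, the last against 0.24 in all 10 tumors. The 4 luminal keratins summed to 2798 to 6945 TPM against 149 to 4240 TPM, and the 7 basal keratins to 486 to 1636 TPM against 95.5 to 1034 TPM, again with tumor 8 the lowest. The luminal progenitor and alveolar genes summed to 3093 to 6776 TPM against 208 to 10460 TPM, and the hormone-sensing luminal genes to 187 to 539 TPM against 167 to 724 TPM. Of 7 myoepithelial genes, 2 had differences above 0 and 5 below, with a median of -0.30. At an unadjusted p under 0.05, 2 were higher and 2 lower (28.6% each against 9.81% and 8.06% of all genes). Without the mouse of tumors 10 to 12 there were 1 and 3, with a median of -0.77. They summed to 161 to 408 TPM in the low tumors and 84.3 to 166 TPM in the high tumors. Among them Trp63, the p63 factor of basal cells, was at 0.312 to 0.716 TPM in the low tumors. In the high tumors it was at 5.48, 14.2, 13.6, 0.303, 3.01 and 15.5 TPM. All high tumors but tumor 8 were above the low side, and Trp63 met the minimum mean of 1 TPM only through the high side. The difference of Trp63 was 2.31 ± 0.62 over all 10 tumors, 2.15 ± 0.91 without the mouse of tumors 10 to 12, and 2.58 ± 0.50 without tumor 8, where it passed (adjusted p 0.0417, limma). Lcn2, an iron-trapping protein of the luminal progenitor list, also passed without tumor 8, with 1.23 ± 0.24 (adjusted p 0.0424, limma), against 0.53 ± 1.19 over all 10 tumors and -1.42 ± 2.20 without that mouse. The contractile genes Tagln and Cnn1 of the myoepithelial list went the other way from Trp63, with -0.79 ± 0.31 and -0.80 ± 0.33 and no overlap between the sides. Both were larger without the mouse of tumors 10 to 12, at -1.55 ± 0.49 and -1.88 ± 0.44.

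**Figure D5:**
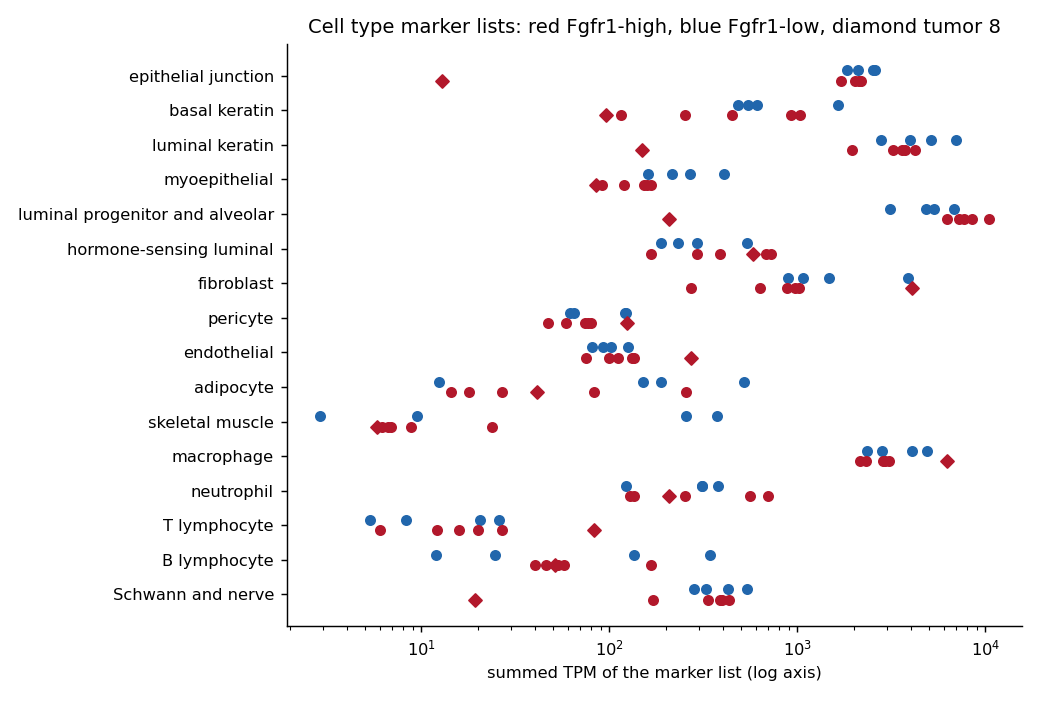
Summed TPM of each cell type list on a log axis, 1 point per tumor (red high, blue low, diamond tumor 8). Tumor 8, with 12.9 TPM of the epithelial junction genes, lies far to the left of the others there, and the ranges of the sides overlap for all 16 lists.

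Markers of other cells gave values as follows, and their part in the differences above was not tested. The 9 fibroblast genes summed to 890 to 3881 TPM in the low tumors and 272 to 4071 TPM in the high tumors, with a median difference of -0.58. The 7 endothelial genes summed to 81.1 to 125 TPM against 74.9 to 271 TPM, with a median of 0.39. The 8 macrophage genes all had differences below 0, with a median of -0.44 and 2 at an unadjusted p under 0.05 (Lyz2 and Csf1r; 25.0% of the list against 8.06% of all genes), and summed to 2360 to 4874 TPM against 2165 to 6232 TPM. Without the mouse of tumors 10 to 12 their median turned to 0.34, with -0.03 ± 0.64 for Lyz2 and 0.25 ± 0.49 for Csf1r. The 5 adipocyte genes and the 6 skeletal muscle genes tested also were all below 0, with medians of -1.41 and -0.64, and of -0.97 and -2.24 without that mouse, where 2 skeletal muscle genes and 2.87% of all genes were lower at an unadjusted p under 0.05. Skeletal muscle genes summed to 2.89 to 376 TPM in the low tumors and 5.80 to 23.7 TPM in the high tumors. The remaining lists had medians of -0.33 (pericyte), -0.60 (neutrophil), 0.020 (T lymphocyte), -0.012 (B lymphocyte) and 0.057 (Schwann and nerve). In the same order they were -0.87, 0.39, 0.80, 0.26 and -0.37 without the mouse of tumors 10 to 12. The milk protein genes Csn1s1 and Csn2, with 4.06 ± 1.43 and 2.13 ± 0.89, differed widely among the tumors of each side. Csn1s1 was at 4.21, 224, 186 and 11.5 TPM in the low tumors and between 2.14 and 1051 TPM in the high tumors, and without the mouse of tumors 10 to 12 its difference was 0.81 ± 2.38.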

How the data were processed

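Poly(A) RNA of 12 tumors was sequenced as paired-end stranded libraries from RNA with an integrity number above the limit set in the study. The authors trimmed adapters with fastq-mcf, aligned to GRCm38 with HISAT2, quantified with StringTie 2.1.6 and deposited TPM per Ensembl gene. No read counts were used, so depth and counting error are unknown. Of the 10 tumors, 21980 to 23443 of 47593 genes were above 0, with TPM totals of 999770 to 999909. GENCODE M21 placed 99.0% of genes.

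Genes with a mean of 1 TPM or more were tested on log2(TPM + 1) with limma 3.58.1 in R 4.3.3 (trend on mean expression), with the mouse as a random block by duplicateCorrelation and Benjamini-Hochberg adjustment over 16476 genes at 0.05. The fit first set down, averaging tumors of a mouse within a side before blocking, could not be estimated from 8 averages. The fit over 10 tumors, listed as an alternative to it, was used instead, before any calls were seen. The members, lists and cutoffs were chosen with earlier results of these data known. Named genes were those past the threshold, filled to 12 per direction by unadjusted p among genes at a mean of 10 TPM or more with separate sides. Up to 4 genes per list were also named by the same order, with further list members named after their values were seen. A fold on this scale understates changes of low genes. Fits were tested on simulated data. Promoter windows came from RefSeq.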

Additional observations from a re-analysis of the deposited data

Results flagged for a closer look

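Of 54 sets of log2 values, each over the 6 Fgfr1-high or the 4 Fgfr1-low tumors, 8 had an end value far from its neighbour for the range of its group by Dixon's criterion, and all 8 were on the high side. Chance gives such a value in about 1 of 20 sets. Tumor 8 was the source of 5. Its summed level was 3.80 for the epithelial junction genes (nearest tumor 10.74), 7.23 for the luminal keratins (10.93), 7.71 for the luminal progenitor and alveolar genes (12.61) and 4.33 for the Schwann and nerve genes (7.42). For the macrophage genes it was the highest, at 12.61 (11.59). The summed skeletal muscle genes were highest in tumor 6 at 4.62 (3.29), and the summed B lymphocyte genes in tumor 12 at 7.39 (5.87). Among the genes that rose, Wsb1 was lowest in tumor 7 at 7.39 (7.69). All these values are log2(TPM + 1).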

How the results depend on the processing

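The number of genes called depended on the processing, while the 9 genes called kept their direction in all 16 or 17 alternatives in which each was tested and passed the threshold in 3 to 8 of them. Over 24 named genes and 17 alternatives, 404 values gave 270 of unchanged call, 102 that lost it, 32 that gained it and 0 of opposite sign. All of these named genes but Cyp26a1 had sides that did not overlap. Their kept direction thus follows largely from that separation and is no further support. A minimum mean of 10 TPM in place of 1 (10605 genes) called 60 higher and 62 lower. With tumor medians set equal, 0 higher and 3 lower passed (limma, with 1618 and 1412 at an unadjusted p under 0.05). The fit without the mouse block, no filter on low values, no trend and Fgfr1 as a continuous term each called 0 higher and 0 lower (limma, with 839, 1654, 1635 and 967 higher and 956, 1797, 1271 and 1107 lower at an unadjusted p under 0.05). Further alternatives were chosen after seeing the data. Averaging tumors of a mouse within a side with no block called 0 and 0 (limma, 318 and 370 unadjusted), and leaving out the 3 tumors within 50 TPM of the dividing value called 1 higher and 6 lower, of which Dpysl5 and Tnfrsf12a were the ones among the 9. Leaving out 1 tumor or mouse gave 0 to 100 higher and 0 to 69 lower. The median difference of the Fgfr1 region ran from -0.27 without the mouse of tumors 3 and 4 to 0.29 without the mouse of tumors 10 to 12, and was 0.13 without the mouse block and 0.071 with averages. The causes were not tested. In the fit without the mouse of tumors 10 to 12 the correlation of 0.749 was carried over, since too few mice with several tumors remained to estimate it. The test counts tumors, not mice, in its degrees of freedom, so its p-values may be too small. The number of tumors and unknown depth limit what can be seen.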

Other observations

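The position of the genes on the chromosomes, looked at after the values were seen, gave a difference that the gene lists do not show. Of the 12 named genes with higher values in the Fgfr1-high tumors, 4 lie close together on chromosome 11: Nek8, Wsb1, 5730455P16Rik and Zfp830. In the stretch from 76166106 to 84765935, which adds 2000 kb on each side of these 4, 131 genes were tested. Of these, 64 (48.9%) were higher and 4 (3.05%) were lower at an unadjusted p under 0.05, against 27.2% and 7.53% of the 1208 genes on the rest of chromosome 11 and 9.81% and 8.06% of all 16476 genes. Without the 4 named genes the shares were 47.2% and 3.15%. The sides did not overlap for 17 of the 131 genes, all higher, and without the 4 named genes for 13 of 127 (10.2%), against 1.16% higher on the rest of chromosome 11 and 1.05% of all genes. The median difference of the stretch was 0.44, with 0.49 within the mouse of tumors 10 to 12 and 0.30 over the other mice. On the rest of chromosome 11 (1208 genes) the median was 0.23, with 0.31 within that mouse and 0.062 over the others.

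Members of the stretch have different known roles, and those given here were picked from the 17 of 131 with separate sides. In the stretch 98 of 131 genes had a difference above 0. Tmem199, which acts in the assembly of the vacuolar proton pump, was at 34.1 to 40.0 TPM in the low tumors and 44.3 to 73.1 TPM in the high tumors. Tefm, a mitochondrial transcription factor, was at 8.56 to 10.6 TPM against 11.3 to 28.1 TPM, and Nsrp1, a splicing regulator, at 11.7 to 15.2 TPM against 17.7 to 33.2 TPM. As the median over its genes, relative to the 10 tumors' mean and to the median of all genes, the stretch stood at -0.29, -0.36, -0.25 and -0.11 in the low tumors 1, 3, 4 and 10. It stood at 0.17, 0.16, -0.21, 0.094, 0.21 and 0.57 in the high tumors 5, 6, 7, 8, 11 and 12. Tumor 7 was thus as low as the low side, and tumor 12 was the highest. These sides were set by Fgfr1, which lies on chromosome 8.

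Over the chromosomes with 100 or more genes tested, medians ran from -0.20 on chromosome 8 to 0.24 on chromosome 11. Next to chromosome 11 stood chromosomes 9 and 10, each at 0.21. This order rests largely on the mouse of tumors 10 to 12: over the other mice the medians ran from -0.48 on chromosome 12 to 0.29 on chromosome 19, with 0.047 on chromosome 8 and 0.083 on chromosome 11. Chromosome 11 is also the chromosome on which these mice carry the MADM cassettes and both mutant alleles. Genotype along the chromosome and copy number were not measured here, and their part in this difference was not tested.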
